A study of Mus musculus with 19 samples.

Results

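Blood vessels of 10 mouse liver tumours were examined through 40 endothelial genes, taken as a fixed list of names from the 39179 genes of the count table. The list holds 6 sinusoidal genes, 5 capillary genes, 9 receptors, 10 junction and surface genes, 3 transcription factors, 4 arterial and tip cell genes and 3 angiocrine Wnt genes. The tumours arose in male mice of mixed background that carried Ctnnb1tm1Mmt (HET), an allele that yields stabilised beta-catenin after recombination, and Gt(ROSA)26Sortm1(MYC)Djmy (HOM), which expresses MYC after recombination. Every mouse received AAV8.TBG.PI.Cre.rBG at 640000000 genome copies, a virus whose TBG promoter drives Cre in hepatocytes, so recombination was directed at hepatocytes and not at the endothelium. The labels list 13 tumours, 3 controls at the same dose and 3 high AAV controls at 200000000000 genome copies per mouse. Only the columns of tumours 04 to 13 could be matched to a label by number, so the other 9 columns were not used and no tumour was compared with control liver here. The column names also carry 5 tags whose meaning the labels do not give. Tumours 05 and 06 shared a tag, as did 07 and 08, 09 and 10, and 11 to 13, and tumour 04 had a tag of its own. By the first part of the tag, tumours 04 to 06, 07 and 08, and 09 to 13 formed 3 tag families. Tumours with a shared tag may not be independent.

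Liver sinusoids are lined by an endothelium with open pores and no continuous basement membrane, which takes up waste molecules from the blood through scavenger receptors such as the stabilins. In liver cancer these vessels are often replaced by capillary-like vessels, which close their pores and express continuous-endothelium genes. Endothelial cells also send signals to hepatocytes: those around the central vein release Wnt ligands and an R-spondin that maintain the beta-catenin programme of the neighbouring hepatocytes.

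The libraries were poly(A)-selected RNA from whole tumours, and each held 11687034 to 36964427 reads assigned to genes, so a count of 3 corresponded to between 0.0774 and 0.273 CPM (counts scaled to a library of 1000000). Whole tumours mix cell types, and a lower level could reflect fewer endothelial cells or less RNA per cell, which cannot be told apart in these data. Tumour 07 had the smallest library, the largest share of reads without a unique position (57.9% of the reads in the table, against 45.4% at the lowest in tumour 10) and the most red cell RNA. Tumours 05, 06 and 07 also carried more of Rpph1 and Rmrp, which lack a poly(A) tail: Rpph1 was at 30.1 to 51.0 CPM in these tumours and at 0.766 to 4.27 CPM in the other 7. Hepatocyte RNA was abundant everywhere, with Alb, which encodes albumin, at 13082 to 23249 CPM. Genes of lymphatic vessels were scarce, since Ccl21a did not exceed 0.145 CPM and Pdpn did not exceed 2.12 CPM. Prox1, which hepatocytes also express, was at 68.5 to 127 CPM.

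Endothelial genes varied far more between tumours than most genes. Of the 40 members, 39 had at least 100 counts over the 10 tumours, and 26 of these 39 had a standard deviation (SD) of log2 CPM above 1, that is, a typical departure of over 2-fold from the mean. Across all 14704 genes with that many counts, 10.1% had an SD above 1. With the stricter filterByExpr filter these shares were 20 of 32 members and 5.18% of 12462 genes. The median SD was 1.14 for the members and 0.38 for all genes. Tumour 07 was the highest of the 10 tumours for 31 of the 40 members, beside 13.3% of all 14704 genes, and tumour 09 for 4, beside 11% of all genes. Tumours 11 and 12 were the lowest for 12 and 13 members, beside 9.34% and 12% of all genes. Without tumour 07 the count of members with an SD above 1 was 16 of 39, beside 9.44% of all genes.

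**Figure D1:**
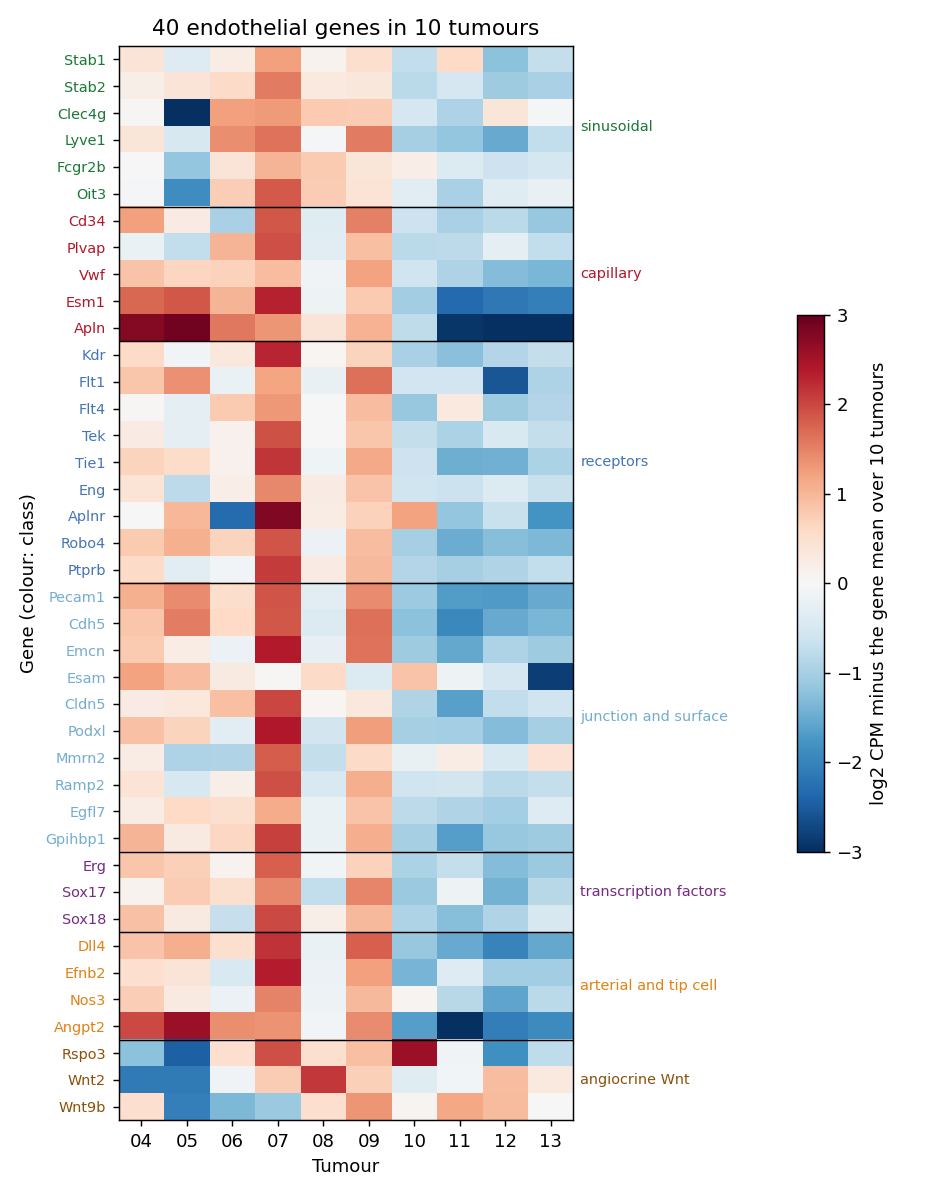
Level of the 40 endothelial genes (rows, grouped and coloured by class) in tumours 04 to 13 (columns), as log2 CPM minus the mean of the gene over the 10 tumours, with red above and blue below the mean. Tumour 07 was the highest for 31 genes, whereas Apln, Angpt2, Esam, Rspo3 and Wnt2 peaked in other tumours.

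The 6 sinusoidal genes were all highest in tumour 07, and their range between the lowest and the highest tumour was 4.59-fold to 25.0-fold. Stab1 and Stab2 encode stabilin-1 and stabilin-2, scavenger receptors that clear molecules from sinusoidal blood. Stab2 (ENSMUSG00000035459, chr10:86841194-87008038, minus strand, GRCm38) was at 27.5, 31.7, 36.5, 72.6, 29.8, 31.0, 13.8, 17.3, 11.6 and 12.4 CPM in tumours 04 to 13 in order. The 4 tumours from 10 to 13 were below all others, and the SD was 0.83. Stab1 ran from 13.6 CPM in tumour 12 through a median of 35.8 to 74.9 CPM in tumour 07. Tumour 11 held the second highest level of Stab1, 48.5 CPM, although its Stab2 was among the 4 lowest.

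Lyve1, the hyaluronan receptor of sinusoidal and lymphatic endothelium, ranged from 2.43 CPM in tumour 12 to 22.1 CPM in tumour 07, with a median of 5.94 CPM. It was high in tumours 06, 07 and 09, which were at or above 18.8 CPM, and no other tumour exceeded 9.23 CPM. Fcgr2b, the inhibitory Fc receptor through which these cells remove immune complexes, had the smallest SD of all 40 members at 0.67. Its level was 2.69 CPM in tumour 05 at the lowest, 6.49 CPM at the median and 12.4 CPM in tumour 07 at the highest. Oit3, a secreted or surface protein with a zona pellucida domain, ran from 1.28 CPM in tumour 05 through 4.43 CPM to 17.9 CPM in tumour 07.

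Clec4g encodes the C-type lectin LSECtin (chr8:3707066-3720695, minus strand, GRCm38). Its levels were 3.29, 0.321, 7.73, 8.00, 5.66, 5.54, 2.26, 1.64, 4.16 and 3.07 CPM in tumours 04 to 13, a 25.0-fold range. Tumour 05 stood apart, with 5 counts in all, and the next lowest tumour, 11, was at 1.64 CPM. Tumour 05 was also the lowest for Fcgr2b and Oit3, while its Stab2 was above the median of 28.7 CPM. Of the 8 other sinusoidal genes on the wider list, 3 were also lowest in tumour 05: Dnase1l3, a secreted DNase, at 2.12 CPM, Ehd3, a membrane-trafficking protein, at 2.18 CPM, and F8, clotting factor VIII, at 1.47 CPM. The other 5 were not: Kit was highest in tumour 05 at 13.7 CPM, Bmp2 and Gata4 were above their medians there, and Thbd and Maf were lowest in tumours 11 and 12. The sum of the list was lowest in tumour 11, at 41.3 CPM, and stood at 56.0 CPM in tumour 05. Kupffer and macrophage RNA was lowest in tumour 05 too: the 8 genes of that list summed to 53.1 CPM there and to 103 to 298 CPM elsewhere, and its part in the sinusoidal values was not tested. Clec4f, a defining Kupffer cell lectin, was at 0.577 CPM in tumour 05.

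The 5 capillary genes covered 6.18-fold to 83.4-fold ranges, and that of Apln was the widest of all members without a count at or under 3. Apln encodes apelin, a secreted peptide made by sprouting endothelium (chrX:48025146-48034853, minus strand, GRCm38). In tumours 04 to 13 it was at 40.7, 44.4, 18.0, 14.9, 7.84, 12.4, 3.46, 0.693, 0.533 and 0.619 CPM, with an SD of 2.37. Tumours 04 and 05 were the highest, and tumours 11, 12 and 13, which share a tag, all lay below 1 CPM, with 11, 16 and 24 counts.

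Esm1, a proteoglycan of tip cells (chr13:113209659-113218104, plus strand, GRCm38), was at 27.8, 30.5, 17.1, 42.2, 7.55, 14.6, 4.04, 1.58, 1.83 and 1.96 CPM in tumours 04 to 13. Tumours 11, 12 and 13 were again the 3 lowest, and the range was 26.8-fold. Plvap, which forms the diaphragms of endothelial pores and caveolae, ranged from 13.2 CPM in tumour 10 to 88.4 CPM in tumour 07 with a median of 18.7 CPM. Cd34, a sialomucin of capillary endothelium and blood progenitors, had a median of 4.20 CPM, with 2.66 CPM in tumour 13 at the low end and 21.9 CPM in tumour 07 at the top. Tumours 04, 07 and 09 were high in Cd34, at 14.1 CPM or more, and tumour 06 was low at 2.98 CPM although its Plvap, 46.9 CPM, was the second highest. Vwf encodes von Willebrand factor, the clotting protein stored in endothelium and platelets, and ran from 3.27 CPM in tumour 13 through 10.8 CPM to 20.2 CPM in tumour 09. The 4 platelet genes summed to 3.79 to 29.4 CPM, highest in tumour 07 and lowest in tumour 12, and their part in the Vwf values was not tested.

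Promoter sequences were available in the RefSeq table (GRCm38.p6) for 22 of the 40 members, as 26 windows from 250 bases before to 50 bases after a start site. Those of Clec4g and Stab2 and of Esm1 and Apln are shown because these genes mark the sinusoidal and capillary sides of the comparison, and the capitals mark matches to AGGAAG or CGGAAG, the core letters bound by ETS factors such as Erg, on either strand.
Clec4g, chr8:3720602-3720901, minus strand: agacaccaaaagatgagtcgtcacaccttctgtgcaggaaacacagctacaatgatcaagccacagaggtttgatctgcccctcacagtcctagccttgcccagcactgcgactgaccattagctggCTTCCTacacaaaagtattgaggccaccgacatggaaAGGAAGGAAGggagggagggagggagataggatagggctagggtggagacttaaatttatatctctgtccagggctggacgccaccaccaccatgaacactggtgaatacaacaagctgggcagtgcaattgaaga
Stab2, chr10:87007893-87008192, minus strand: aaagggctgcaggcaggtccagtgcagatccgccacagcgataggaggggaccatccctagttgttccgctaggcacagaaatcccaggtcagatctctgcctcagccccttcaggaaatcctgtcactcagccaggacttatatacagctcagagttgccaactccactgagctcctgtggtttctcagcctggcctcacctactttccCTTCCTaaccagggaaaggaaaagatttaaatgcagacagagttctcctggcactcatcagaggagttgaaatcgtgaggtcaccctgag
Esm1, chr13:113209409-113209708, plus strand: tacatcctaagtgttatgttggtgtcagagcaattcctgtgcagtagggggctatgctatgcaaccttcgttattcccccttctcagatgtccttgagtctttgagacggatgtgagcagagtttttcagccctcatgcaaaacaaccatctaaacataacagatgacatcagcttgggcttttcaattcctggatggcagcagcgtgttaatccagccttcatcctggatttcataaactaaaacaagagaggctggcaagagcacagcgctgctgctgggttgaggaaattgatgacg
Apln, chrX:48034804-48035103, minus strand: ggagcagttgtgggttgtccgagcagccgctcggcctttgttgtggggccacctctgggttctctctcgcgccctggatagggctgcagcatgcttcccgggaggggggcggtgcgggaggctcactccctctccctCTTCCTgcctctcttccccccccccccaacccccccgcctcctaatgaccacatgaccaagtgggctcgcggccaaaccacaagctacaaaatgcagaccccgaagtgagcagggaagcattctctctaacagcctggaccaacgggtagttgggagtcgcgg
The Clec4g window held 3 matches, of which 2 overlapped, those of Stab2 and Apln held 1 each and that of Esm1 held 0. Over all members, 13 of 26 windows had an ETS match, beside which 46.5% of 32851 promoters of the same length had one. The FOX and ETS composite AACAGGAA, which can overlap an ETS match, occurred in 2 of 26 member windows (7.69%) and in 2.65% of all promoters. The GATA letters AGATAAG occurred in 2 of 26 (7.69%) and in 3.04% of all, and the SOX letters ACAATGG in 0 of 26 and in 3.66% of all.

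The balance between sinusoidal and capillary genes was not the same in every tumour. On the scale of mean log2 CPM, the sinusoidal genes averaged 3.19 ± 0.81 (SD, n = 10 tumours) and the capillary genes 3.19 ± 1.31. Sinusoidal minus capillary was -2.05 in tumour 05, -1.13 in tumour 04, -0.43 in tumour 09 and -0.24 in tumour 07. It was 0.10 in tumour 06, 0.25 in tumour 10, 0.56 in tumour 08, 0.82 in tumour 12, 1.03 in tumour 11 and 1.13 in tumour 13. By these means tumour 05 had the lowest value and tumours 11, 12 and 13 the 3 highest, with an SD of 1.01 over the 10 tumours. With the median over the genes in place of the mean, tumour 05 was still the lowest, at -1.88, and tumour 13 the highest, at 0.65, but tumours 11 and 12, at 0.35 and 0.26, lay below tumour 10, at 0.37. Tumour 13 was not rich in sinusoidal RNA: its sinusoidal mean of 2.65 was below the average, and its capillary mean of 1.52 was the lowest of all. Under the other settings tried, the value of tumour 06 ranged from -0.45 to 0.10 and so changed sign, and the values of the other 9 tumours kept theirs. No setting left out Apln or Esm1, the capillary genes with the widest ranges.

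**Figure D2:**
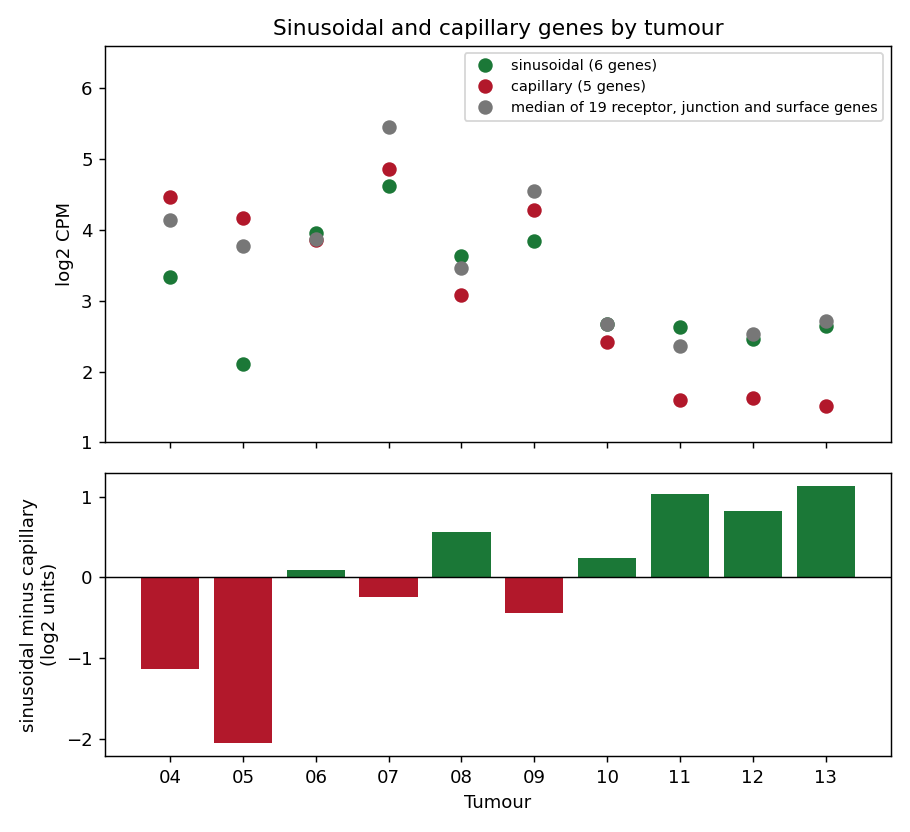
Upper panel, mean log2 CPM of the sinusoidal and the capillary genes and the median of the 19 receptor, junction and surface genes in each tumour; lower panel, sinusoidal minus capillary in log2 units. The difference runs from -2.05 in tumour 05 to 1.13 in tumour 13. Capillary points lie below the sinusoidal ones in tumours 06, 08 and 10 to 13.

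The tumours 11, 12 and 13 were set against the other 7 after this order had been seen, so the counts describe and do not test it. In 13 of the 39 members, all 3 of these tumours lay below all 7 others, and in 0 members all 3 lay above, beside 3.63% and 3.38% of all genes. The 13 were Vwf, Esm1 and Apln of the capillary genes, Flt1, Tie1 and Robo4 of the receptors, Pecam1, Cdh5, Podxl and Gpihbp1 of the junction and surface genes, and Dll4, Nos3 and Angpt2 of the arterial and tip cell genes. No sinusoidal gene was among them. Stab2 and Lyve1 were nonetheless low in tumours 11 to 13, at 17.3 CPM or less and 4.23 CPM or less. Both were also low in tumour 10, at 13.8 and 3.51 CPM, whereas tumours 04 to 09 were at 27.5 and 5.07 CPM or more. Other RNA was also lowest in these 3 tumours: the red cell genes summed to 102 to 128 CPM against 220 CPM or more in the others, and the hypoxia genes to 170 to 210 CPM against 302 CPM or more. Their part in the counts was not tested. Between the 2 medians the difference was 24.1-fold for Apln, 11.9-fold for Angpt2, 9.35-fold for Esm1 and 6.80-fold for Pecam1, and the smallest was 2.25-fold for Nos3.

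Receptors carry the signals that build vessels, and 8 of the 9 were highest in tumour 07. Kdr, the main receptor for Vegfa, was least abundant in tumour 11, at 5.04 CPM, and most abundant in tumour 07, at 60.5 CPM. Flt1, the decoy receptor that also binds Pgf, spanned 2.73 CPM (tumour 12) to 52.7 CPM (tumour 09). Flt4, the receptor for Vegfc and Vegfd, was between 5.72 and 31.6 CPM. Tek, the angiopoietin receptor, covered 1.07 to 8.46 CPM and its orphan partner Tie1 3.72 to 46.5 CPM. Ptprb, the phosphatase that restrains Tek, covered 6.80 to 58.8 CPM, and Robo4, a guidance receptor of vessel stability, 3.53 to 37.7 CPM.

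Eng, a co-receptor for Bmp ligands, had the smallest SD of the receptors at 0.75, with 23.5 CPM in tumour 05, a median of 38.5 CPM and 110 CPM in tumour 07. Aplnr, the receptor of apelin, had the largest at 1.53, and its levels were low: 0.0609 CPM in tumour 06, which is 1 count, 0.761 CPM at the median and 5.37 CPM in tumour 07. Tumours 11 to 13 were low in both Aplnr and its ligand Apln, tumours 05, 07 and 09 were above the median in both, and tumours 04 and 06 were above the Apln median and below the Aplnr median, with tumours 08 and 10 the reverse. Aplnr was not fitted on Apln.

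Of the 10 junction and surface genes, 9 were highest in tumour 07. Cdh5, the adhesive cadherin of endothelial junctions, had the largest SD of this class at 1.46, from 6.17 CPM in tumour 11 through 27.3 CPM to 87.5 CPM in tumour 07. Tumours 05, 07 and 09 were at 69.6 CPM or more, and tumours 10 to 13 at 10.2 CPM or less. Pecam1, a self-binding adhesion molecule of endothelium and platelets, ranged from 5.69 to 69.3 CPM, Podxl, a sialomucin, from 3.36 to 45.4 CPM, and Emcn, another sialomucin, from 1.07 to 17.6 CPM. Gpihbp1, which carries lipoprotein lipase across capillary endothelium, covered 3.91 to 52.2 CPM, and Cldn5, a tight junction claudin, 1.58 to 20.7 CPM. Ramp2, the co-receptor for adrenomedullin, covered 2.50 to 17.3 CPM, and Mmrn2, a matrix protein of the vessel wall, 6.28 to 42.7 CPM. Egfl7, a secreted protein of the vessel wall, had the smallest SD of the class at 0.76, with 9.99 CPM in tumour 12, 20.6 CPM at the median and 43.6 CPM in tumour 07.

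Esam, an adhesion molecule of endothelium and platelets (chr9:37528089-37538319, plus strand, GRCm38), went its own way. Its levels were 145, 118, 75.2, 63.2, 92.9, 47.1, 112, 55.7, 44.0 and 8.72 CPM in tumours 04 to 13. Tumour 07, the top tumour for most members, was below the Esam median of 69.2 CPM, and tumour 13 was far below every other tumour. Per kilobase of exon, Esam had the highest mean level of the 40 members, 25.0 CPM per kilobase, ahead of Cdh5 at 8.32 and Plvap at 7.58 CPM per kilobase.

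**Figure D3:**
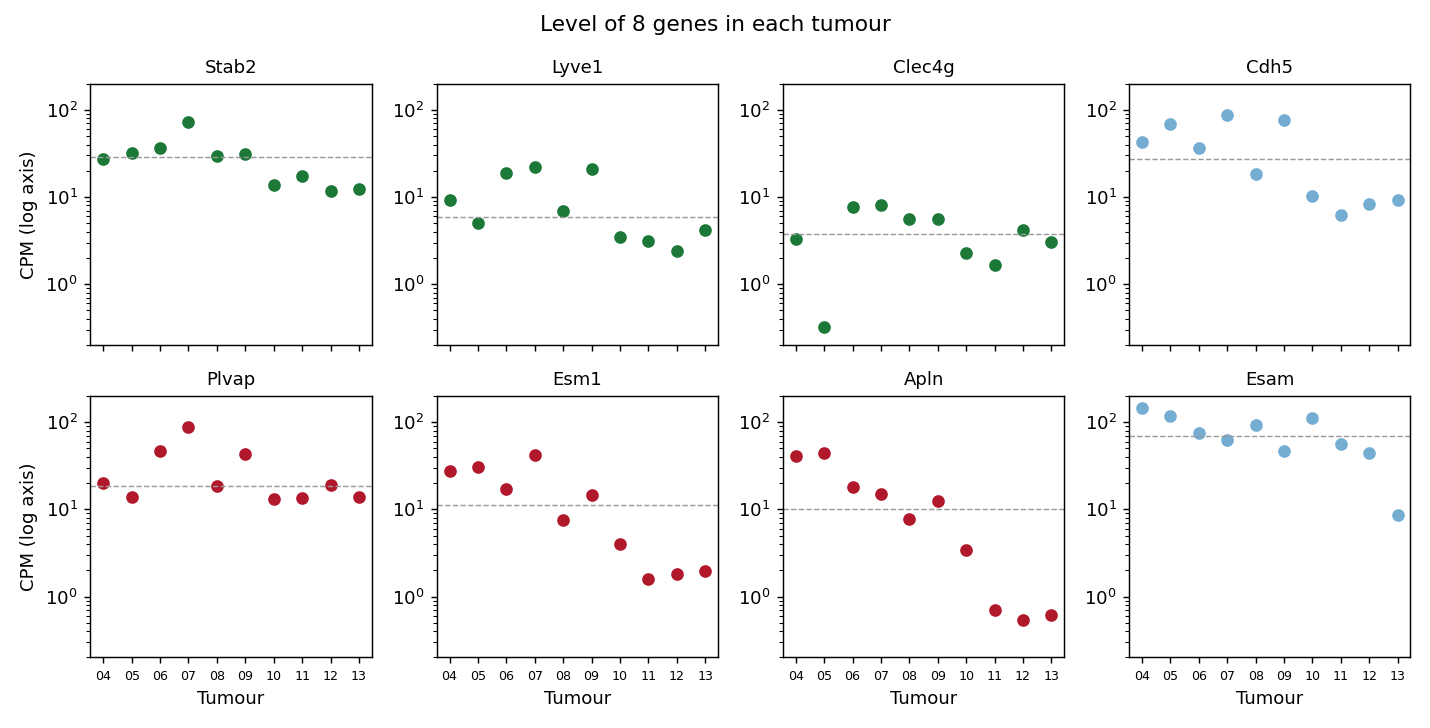
CPM on a log axis in tumours 04 to 13 for 3 sinusoidal genes (Stab2, Lyve1, Clec4g), 3 capillary genes (Plvap, Esm1, Apln) and 2 junction genes (Cdh5, Esam), 1 point per tumour, with the median as a dashed line. Apln and Esm1 are lowest in tumours 11 to 13, Clec4g in tumour 05 and Esam in tumour 13.

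Among the transcription factors, Erg, an ETS factor that maintains endothelial identity, ranged from 1.10 CPM in tumour 12 through 2.91 CPM to 10.2 CPM in tumour 07, with the smallest SD of its class, 1.01. Sox18, a SOX factor of vessel development, had the largest, 1.04, and ranged from 1.58 CPM in tumour 11 through 3.67 CPM to 16.0 CPM in tumour 07. Its relative Sox17, linked to arterial identity, covered 0.566 to 4.86 CPM. The 3 SDs lay between 1.01 and 1.04.

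The arterial and tip cell class contained the second most variable member. Angpt2, the Tek ligand released by activated endothelium (chr8:18690263-18741562, minus strand, GRCm38), was at 20.8, 32.0, 13.9, 13.4, 4.93, 14.0, 1.59, 0.567, 1.16 and 1.32 CPM in tumours 04 to 13, with an SD of 2.00. Its order resembled that of Apln: tumours 05 and 04 were the 2 highest, and tumours 11, 12 and 13 the 3 lowest. Of the Angpt2 exon bases, 70.7% overlap Mcph1 on the opposite strand, and Mcph1 had an SD of 0.31 around 15.2 CPM. The strand setting of the counting was not stated, so reads of Mcph1 could not be separated from those of Angpt2, and their part in its values was not tested. Dll4, the Notch ligand of tip cells, covered 1.30 to 25.2 CPM, and Efnb2, an arterial ephrin, 0.913 to 13.5 CPM. Nos3, the endothelial nitric oxide synthase, had the smallest SD of the class, 0.93, with 0.865 CPM in tumour 12, 2.72 CPM at the median and 8.00 CPM in tumour 07.

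Rspo3 had the most counts of the 3 angiocrine Wnt genes. Rspo3, the R-spondin of central vein endothelium (chr10:29453106-29535867, minus strand, GRCm38), was at 1.33, 0.513, 4.63, 12.6, 4.60, 6.16, 19.9, 3.02, 0.832 and 1.88 CPM in tumours 04 to 13. Tumour 10 was the highest, although it was the lowest for 3 other members, and tumour 05 was the lowest. Wnt2, a central vein Wnt ligand, had 0 counts in tumours 04 and 05, a median of 0.377 CPM and a maximum of 1.79 CPM in tumour 08, at least 9.30-fold higher than the limit of 3 counts in tumour 05. Wnt9b, the other Wnt ligand of these cells, had 87 counts in all, too few to enter the fits, and ranged from 0 in tumour 05 through 0.410 CPM to 0.934 CPM in tumour 09. Wnt9b had at most 21 counts in a tumour, and Wnt2 at most 37.

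To see how members differed from each other within a tumour, the median log2 CPM of the 19 receptor, junction and surface genes was subtracted in each tumour, leaving the gene itself out. The median SD of the members was 1.14 before and 0.55 after this centring, which was chosen after the data had been seen. Kdr kept an SD of 0.28, Tie1 of 0.30 and Erg of 0.31, the 3 smallest. Apln kept an SD of 1.73, Angpt2 and Esam of 1.31 each, Clec4g of 1.30 and Aplnr of 1.25, and the 3 angiocrine genes lay between 1.65 and 1.78. In 7 members the SD after centring exceeded that before it: Wnt2, Wnt9b and Rspo3, from 1.32, 1.14 and 1.60, and Esam, Clec4g, Mmrn2 and Fcgr2b, from 1.15, 1.27, 0.84 and 0.67.

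Centred in this way, the sinusoidal mean ran from -1.65 in tumour 05 to 0.27 in tumour 11. The capillary mean ran from -1.21 in tumour 13 to 0.40 in tumour 05. Stab1 was 3.24 above the core median in tumour 11 and between 0.78 and 1.64 above it in the other 9 tumours. Apln was 1.71 above it in tumour 05 and at -3.20 in tumour 13, whereas Plvap was at 0.04 and 1.07 in the same tumours.

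**Figure D4:**
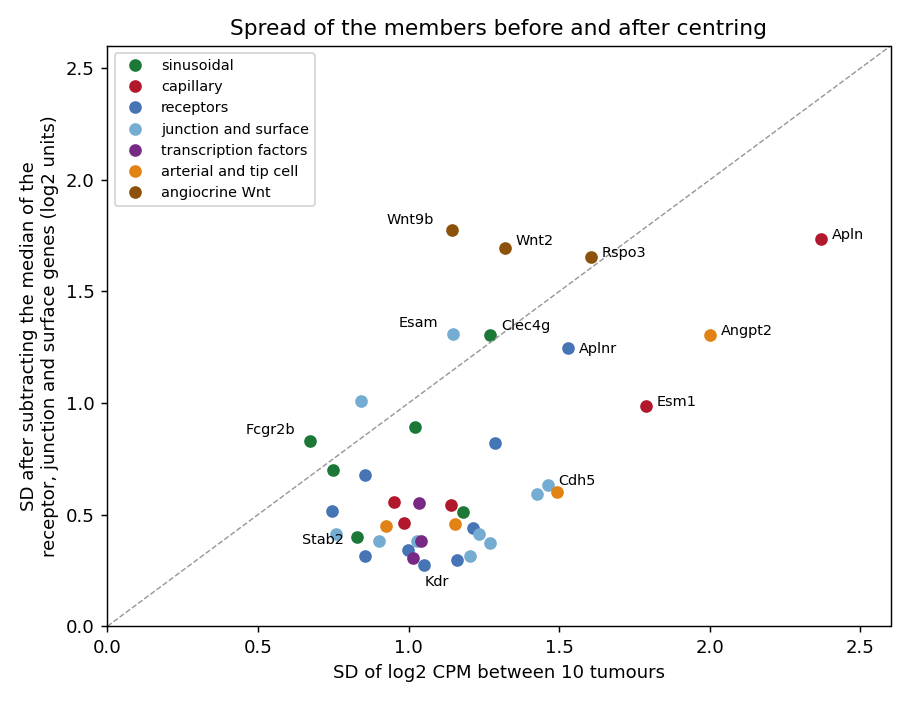
SD of log2 CPM between the 10 tumours (x axis) against the SD after subtracting the median of the receptor, junction and surface genes (y axis), 1 point per member, coloured by class; the dashed line marks equal values. Kdr falls to 0.28, whereas Apln, Angpt2, Rspo3, Wnt2, Wnt9b, Esam and Clec4g keep values of 1.30 or more.

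Tumours that share a column tag were compared with edgeR's quasi-likelihood F test over the 5 tags, adjusted by the Benjamini-Hochberg method over 14704 genes. Apln was the 1 member of 39 that passed, with an adjusted p of 0.0324, beside 0.537% of all genes. Esm1 had an adjusted p of 0.149 and Angpt2 of 0.177. At an unadjusted p under 0.05, 15 of 39 members and 14.6% of all genes passed. The Apln call was lost without any 1 of tumours 05, 06, 07, 11, 12 and 13, with an adjusted p of 0.0935, 0.0509, 0.0554, 0.139, 0.118 and 0.124 in turn. It was also lost with the score of transcripts without a poly(A) tail as a covariate (adjusted p = 0.119). With the 3 tag families in place of the 5 tags, Apln did not pass either, and 3 of all genes did. DESeq2 called 14 members and 1375 of all 14704 genes.

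Stellate cells and pericytes wrap the endothelium, and their genes were the one of the 4 covariates that any member followed at an adjusted p under 0.05. A stellate and pericyte score, the mean log2 CPM of Lrat, Reln, Dcn, Colec11, Pdgfrb, Des, Rgs5, Hand2 and Ecm1, entered the edgeR fit as a covariate, and its slope is the log2 change of a gene per log2 unit of the score. The 9 genes summed to 76.2 CPM in tumour 11 at the lowest, 110 CPM at the median and 354 CPM in tumour 09 at the highest. With this score, 9 of 39 members had a positive slope at an adjusted p under 0.05, beside 1.39% of all genes (1.44% in either direction), and 0 had a negative one. Lyve1 had a slope of 1.42 ± 0.15 (SE) with an adjusted p of 0.00469, and Plvap 1.15 ± 0.17 with an adjusted p of 0.0177. The others were Eng, Ramp2, Gpihbp1, Emcn, Ptprb, Kdr and Tek, with slopes of 0.87 to 1.46 and adjusted p of 0.0221 to 0.0441. Of the Plvap exon bases 21.7% overlap Gtpbp3 on the opposite strand, and of those of Ramp2 28.5% overlap Vps25 on the same strand, and neither overlap was separated in the counts. By class, the 9 were 1 of 6 sinusoidal genes, 1 of 5 capillary genes, 4 of 9 receptors and 3 of 10 junction and surface genes.

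All 39 slopes were above 0, with a median of 0.94, and the median over all genes was -0.03. Esam, at 0.01 ± 0.40, Wnt2, at 0.03 ± 0.62, and Rspo3, at 0.21 ± 0.55, had the 3 smallest slopes. Apln, at 0.69 ± 0.82, and Angpt2, at 0.76 ± 0.66, had wide errors. Outside the members, 1 of 8 other sinusoidal genes and 1 of 15 endothelial signalling partners passed. Thbd, which encodes the anticoagulant receptor thrombomodulin, had a slope of 1.33 with an adjusted p of 0.0104, and Hey1, a Notch target, one of 1.02 with an adjusted p of 0.0481. Slopes were above 0 in all 8 of these sinusoidal genes and in 9 of the 15 partners. Markers of other cells also rose with the score. All 8 Kupffer and macrophage, 4 platelet and 3 cholangiocyte genes had slopes above 0, with medians of 0.57, 0.98 and 0.38, and 0 of them passed. Among hepatocyte genes 2 of 4 slopes were above 0, and among beta-catenin targets 3 of 10. All 5 red cell genes had slopes above 0, and 3 passed, namely Hba-a1, Hbb-bs and Hbb-bt at 2.63 to 2.74. The red cell sum was 102 to 6089 CPM, highest in tumours 07 and 09, and its part in this result was not tested. With the tag family as a block 6 of the 9 kept their call (114 of all genes called), and Ramp2, Emcn and Tek lost it. With the score of transcripts lacking a poly(A) tail as a second covariate 6 also kept it (166 genes), and Kdr, Ptprb and Tek lost it. The count of members called was 5 without tumour 04, 27 without 05, 12 without 06, 2 without 07, 3 without 08, 2 without 09, 1 without 10, 5 without 11, 2 without 12 and 1 without 13. The count over all genes was 98, 660, 243, 28, 49, 7, 20, 97, 40 and 21 in the same order. Without both tumours 07 and 09 it was 0 for members and for all genes, and DESeq2 called 23 members and 577 genes.

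**Figure D5:**
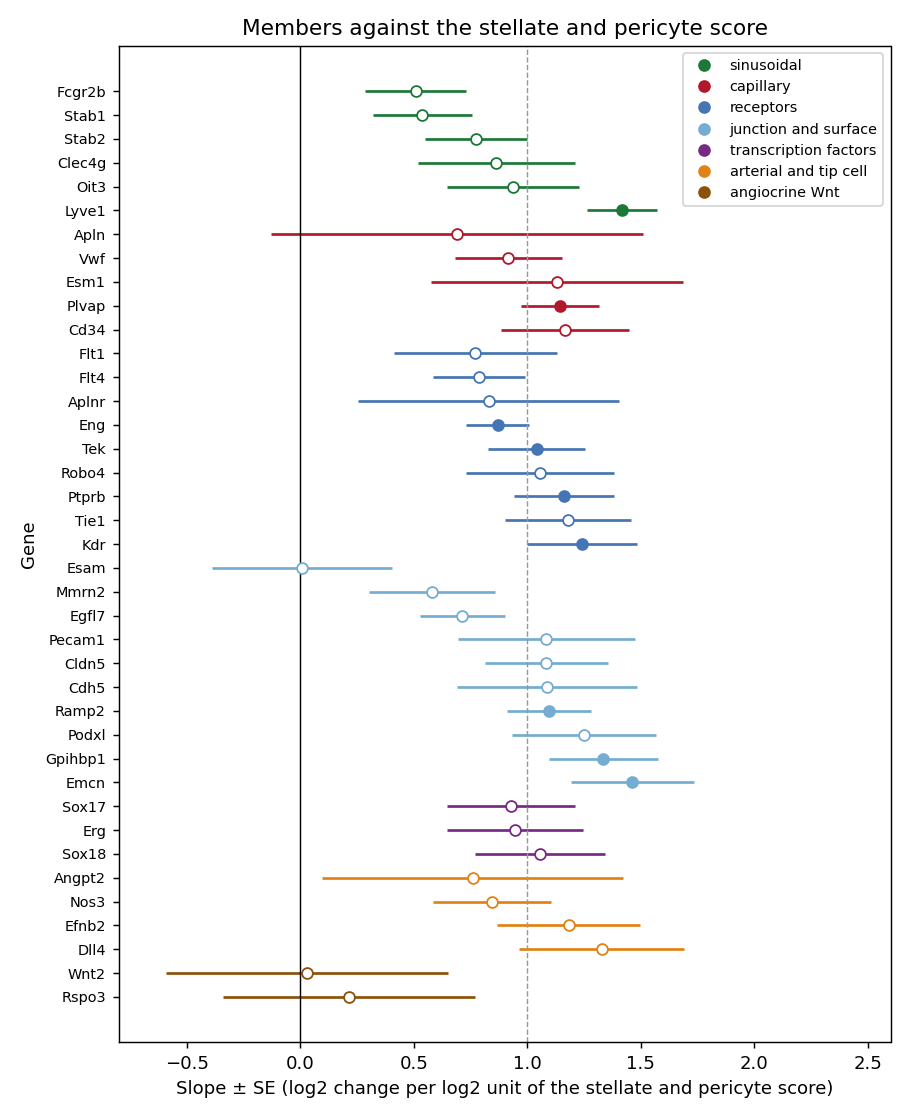
Slope ± SE of the 39 members against the stellate and pericyte score over 10 tumours, in log2 units per log2 unit, grouped and coloured by class; filled points have an adjusted p under 0.05 and the dashed line marks a slope of 1. All slopes exceed 0, and those of Esam, Wnt2 and Rspo3 are the smallest.

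Vegfa, the growth factor that Kdr and Flt1 bind, was at 77.4 CPM in tumour 13, 112 CPM at the median and 529 CPM in tumour 05. With Vegfa as covariate, 0 of 39 members passed at an adjusted p under 0.05, beside 2.09% of all genes (1.91% with a positive slope), and DESeq2 also called 0. At an unadjusted p under 0.05, 2 members passed, Angpt2 with a slope of 1.22 ± 0.55 and Wnt2 with -1.93 ± 0.69, beside 18.3% of all genes. Apln had a slope of 1.16 ± 0.64 and Clec4g one of -0.84 ± 0.57, with adjusted p of 0.368 and 0.462. Tumour 05 dominated this fit, since without it 0 genes passed. The same tumour was the highest for Pgf, a second ligand of Flt1, at 44.9 CPM. In tumour 12 Pgf had 2 counts, below the limit of 3 counts, which is 0.0999 CPM there. Of the 8 hypoxia genes, Adm, Bnip3 and Slc2a1 passed with positive slopes, and the 8 summed to 1396 CPM in tumour 05 and to 170 to 557 CPM in the others. Adm, which encodes adrenomedullin, the ligand of the receptor that Ramp2 helps to form, was at 73.2 CPM in tumour 05 and 0.189 CPM in tumour 11.

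The proliferation score, from 11 cell cycle genes, was the second covariate of interest because the study examined both proliferation and angiogenesis when it compared tumours with each other. No gene passed, the members included, and at an unadjusted p under 0.05 there were 768 genes, or 5.22%, and 2 members. These were Podxl, with a slope of -1.74 ± 0.77, and Wnt2, with 2.25 ± 0.86. DESeq2 called 51 genes and 0 members. Slopes were above 0 in 5 of 39 members and below 0 in the rest, with a median of -0.92 over the members, beside -0.02 over all genes. The proliferation genes summed to 169 CPM in tumour 04 at the lowest and to 427 CPM in tumour 08 at the highest.

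Beta-catenin targets were set against the members because Wnt2, Wnt9b and Rspo3 feed that pathway in normal liver. With the mean of 10 target genes as covariate, 0 of 39 members passed, beside 0.0204% of all genes (0.0136% with a positive slope), and 1 member, Mmrn2, had an unadjusted p under 0.05 with a slope of 1.16 ± 0.50, beside 13.2% of all genes. DESeq2 called 0 members. Rspo3 had a slope of 1.41 ± 0.95 and Wnt2 one of 0.94 ± 1.25, with adjusted p of 0.561 and 0.793.

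Signalling partners outside the list were measured in the same libraries. Notch4, the endothelial Notch receptor, was at 2.63 to 23.5 CPM, highest in tumour 07, and Kit, a receptor of sinusoidal endothelium and blood progenitors, at 0.599 to 13.7 CPM, highest in tumour 05. Nrp1, a Vegfa co-receptor, ranged from 20.3 CPM in tumour 11 to 109 CPM in tumour 06. Pdgfb, which recruits pericytes, ranged from 2.19 CPM in tumour 13 to 16.9 CPM in tumour 04. Vegfb, Vegfc and Vegfd, the other growth factors of the family, had SDs of 0.29, 0.33 and 0.42, below the SD of every member. Gata4, a factor of sinusoidal endothelium that hepatocytes also express, was nearly level, at 13.5 to 19.7 CPM.

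The 10 genes outside the list most like the sinusoidal mean, by Pearson's r of log2 CPM over the 10 tumours among 13490 genes with a mean of at least 1 CPM, were Tmem132e, Scarf2, Arhgap24, Adgrg3, Sod3, Armcx4, Maml2, Lyz2, Clca3a1 and Cpxm1. Their r lay between 0.90 and 0.96. The 10 most like the capillary mean were Fscn1, Kit, Capg, Notch4, Gm45837, Mcam, Cracr2b, Pxdn, Creb3l1 and Fabp4, with r between 0.97 and 0.99. Kit, counted above among the other sinusoidal genes, thus had a pattern close to the capillary mean, with r of 0.98. These values describe 10 tumours that share library and cell-mixture differences, and they carry no test.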

How the data were processed

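Poly(A) RNA from whole mouse liver tumours was extracted with Trizol and made into stranded libraries. The deposited table holds raw read counts per gene, which the authors produced with TopHat2 and HTSeq on GRCm38 per the labels. The study's general methods name STAR, featureCounts and GRCm39 instead. The last lines of the table are the totals HTSeq writes, but its aligner and build were not settled here, which leaves the counts of overlapping genes less certain. The strand setting is not given in the sources used here. Of 19 columns, 9 could not be matched to a label and were not used. Counts were scaled by TMM, given as CPM or log2 CPM (prior count 2), and tested with edgeR 4.0.16 (glmQLFit, glmQLFTest; R 4.3.3) on 14704 genes with at least 100 counts in total, with Benjamini-Hochberg adjustment. DESeq2 1.42.0 was an alternative. The fits were also run on simulated counts, drawn independently for each tumour. Their outcome is not used here, and they do not cover a dependence between tumours that share a tag. Library totals were 11687034 to 36964427 counts, and limits of 3 counts cover counting error only. Gene symbols, exon lengths and overlaps came from GENCODE (GRCm39), for 34199 of 39179 identifiers, and positions from RefSeq (GRCm38.p6). Members and lists were chosen with earlier results of these data known. The rule for named genes asked for values of the sinusoidal, capillary and angiocrine genes and of the most and least variable member of each other class; 7 genes are given in every tumour and the rest by their lowest, median and highest values. The study compared tumours of more than one mouse, but the labels do not say which tumours shared a mouse, so p-values measure the spread between these samples.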

Additional observations from a re-analysis of the deposited data

Results flagged for a closer look

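In 2 of 48 measures over the 10 tumours, 1 tumour stood apart by Dixon's ratio, the gap to the nearest tumour divided by the whole range; chance flags about 1 in 20, or 2.4 of 48. Clec4g, the sinusoidal lectin, was lowest in tumour 05 with a ratio of 0.480 on the log2 CPM scale, where its level of 0.321 CPM rested on 5 counts. Esam, the junction molecule, was lowest in tumour 13 with a ratio of 0.575, at 8.72 CPM beside 44.0 CPM in the next tumour.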

How the results depend on the processing

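No paired analysis was possible because the usable columns belong to 1 group. Comparisons with the control groups were planned and could not be run, since no control column was matched. Of 236 repeated values, 165 stayed close to the main value and 71 moved. The 40 values of sinusoidal minus capillary all moved by less than the SD of 1.01 and are among the 165. That limit is the spread of these same values and is wide. Tumour 11 went from 1.03 to 0.35 with the median over the genes and still counted as close. The 165 also hold 17 member counts each for Vegfa, proliferation and beta-catenin, all of them 0 as in the main fit. Replacing edgeR by DESeq2 gave 1375 genes and 14 members for the tags, 1009 genes for Vegfa, 51 for proliferation, 350 for beta-catenin and 577 genes and 23 members for the stellate and pericyte score. Without a filter the tags gave 1188 genes and 15 members, beta-catenin 7 genes and the stellate score 113 genes. With filterByExpr the tags gave 0 members, since Apln was not kept. With the score of transcripts lacking a poly(A) tail as covariate, the tags gave 15 genes and 0 members, Vegfa 1 gene and beta-catenin 11 genes. Using the 3 tag families in place of 5 tags gave 3 genes and 0 members, and the family as a block gave 1 gene for Vegfa and 114 for the stellate score. Without the 2 tumours farthest from the median, Vegfa gave 1 gene, beta-catenin 0 genes, and the stellate score 0 genes and 0 members. Leaving out 1 tumour at a time gave 16 to 29 members with an SD above 1, 5 to 157 genes and 0 to 2 members for the tags, 0 to 286 genes for Vegfa, 0 to 7 for beta-catenin, and 7 to 660 genes and 1 to 27 members for the stellate score. The cause of these moves was not tested. With 10 tumours, an adjusted p above 0.05 does not show that a member was level, and genes under 3 counts, such as Wnt2 in tumours 04 and 05, could not be ordered.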
